A study of Mus musculus with 36 samples.

Results

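Murine Rescue keratinocytes were compared with WT keratinocytes after 72 h in low calcium medium (LCM), in which keratinocytes do not assemble mature cell-cell junctions. The comparison holds 6 of the 36 libraries of the series, 3 from Rescue and 3 from WT cells, and was chosen by the labels for genotype, time and medium alone. WT cells came from newborn Pkp4+/+ pups and PKP4-KO cells from Pkp4-/- pups, whose alleles lack exon 9 of Pkp4 after Cre and FLPe recombination and were bred onto C57BL/6J. Rescue cells were PKP4-KO cells carrying a lentiviral pLVX-IRES-puro construct for human PKP4 with EGFP at its N-terminus, selected with puromycin into 1 stable line. The labels give WT cells neither vector nor puromycin, so that a difference between Rescue and WT cannot be told apart from one between a transduced, selected line and untransduced cells. No label states that the 3 libraries of a group came from separate pups or lines, and the p-values then measure the spread between these libraries only. Libraries from the same cells at 24 h in LCM, at 72 h in high calcium medium (HCM, LCM with calcium chloride added), and from PKP4-KO cells at 72 h in LCM are used for comparison, with 3 libraries each.

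PKP4 (p0071) is an armadillo-repeat protein of the p120-catenin family. It binds the tails of classical and desmosomal cadherins at the plasma membrane and takes part in RhoA signalling, which controls the actin cortex and its contraction. Basal keratinocytes divide on the basement membrane and express KRT5 and KRT14. On leaving it they switch on a suprabasal programme of small proline-rich proteins, lipoxygenases and kallikreins, which extracellular calcium and cell contact promote.

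The total count per library lay between 15418812 and 22467187 in Rescue and between 19463812 and 21658763 in WT. Levels are given as CPM, the counts of a gene relative to a library's total scaled with a TMM factor, and 3 counts, the smallest level taken as detectable in a library, correspond to between 0.110 and 0.221 CPM in Rescue. Rescue replicate 2 stood apart, with a correlation of log2 levels of 0.943 and 0.963 with the other Rescue libraries, against 0.992 between those and between 0.992 and 0.995 among WT libraries. Its levels were higher for short and lower for long genes, and values without it are given beside results that moved most when it was left out. The cells carried keratinocyte markers. Krt5 lay between 12078 and 15989 CPM in Rescue and between 17657 and 20263 CPM in WT, and the 9 keratinocyte markers summed to between 32401 and 38339.9 CPM in Rescue and between 49463 and 60765 CPM in WT. The 10 immune markers summed to at most 1.17 CPM and the 8 melanocyte markers to at most 4.25 CPM in any library, with Sox10, Tyr and Dct at 0 in all 6. The 12 fibroblast markers summed to between 19.8 and 28.6 CPM in Rescue and between 17.1 and 17.9 CPM in WT, with Pdgfrb and Dpt at 0 in all 6, and the 8 endothelial markers to between 11.2 and 16.7 CPM against 6.87 to 8.43 CPM. The 7 Merkel cell markers summed to between 27.5 and 43.2 CPM in Rescue and between 21.6 and 23.4 CPM in WT, most of it Sox2, with Atoh1 and Piezo2 at 0 in all 6. The part of these low sums in the results was not tested. All 37 mitochondrial genes of the table held 0 counts, so that the mitochondrial share could not be used as a measure of RNA quality. In bulk RNA, fewer cells of a type and less RNA per cell cannot be told apart.

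The construct was present in the cells labelled Rescue, and the endogenous gene was low in them. The GFP-PKP4 sequence, added to the genome by the authors, held 15325, 4505 and 6403 counts in Rescue libraries 1 to 3 and 100, 78 and 56 counts in WT libraries 1 to 3. This corresponds to 409.6 ± 131 CPM in Rescue and 3.55 ± 1.3 CPM in WT (SD, n = 3; log2 fold change 6.85 ± 0.95, adjusted p = 1.6e-06, where ± after a log2 fold change is its SE). Every WT library thus held some counts on GFP-PKP4, and their origin was not tested. Mouse Pkp4 on chromosome 2 (GRCm39, chr2:58991088-59185552) held 273, 101 and 174 counts in Rescue and 786, 1129 and 860 counts in WT. Its level was 8.85 ± 1.3 CPM in Rescue and 41.1 ± 3.15 CPM in WT (SD, n = 3), a 4.64-fold lower level in Rescue (log2 fold change -2.21 ± 0.16, adjusted p = 2.1e-11), and the PKP4-KO libraries had 11.3 ± 2.59 CPM, a level from which Rescue was not called different (adjusted p = 0.083). An exact two-sided permutation test of the 6 values gave p = 0.1, the smallest that 3 libraries against 3 allow. Exon 9, the part removed in the knockout allele, has 220 coding bases on the forward strand (GRCm39, chr2:59142038-59142257) and is shown because it separates the WT transcript from that of PKP4-KO and Rescue cells. Counts per gene do not show which exons the remaining Pkp4 reads fall on.
Pkp4 exon 9: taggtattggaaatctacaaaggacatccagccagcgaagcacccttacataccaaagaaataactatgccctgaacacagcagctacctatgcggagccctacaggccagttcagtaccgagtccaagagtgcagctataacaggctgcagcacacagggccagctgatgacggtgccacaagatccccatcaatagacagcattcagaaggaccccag

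**Figure D1:**
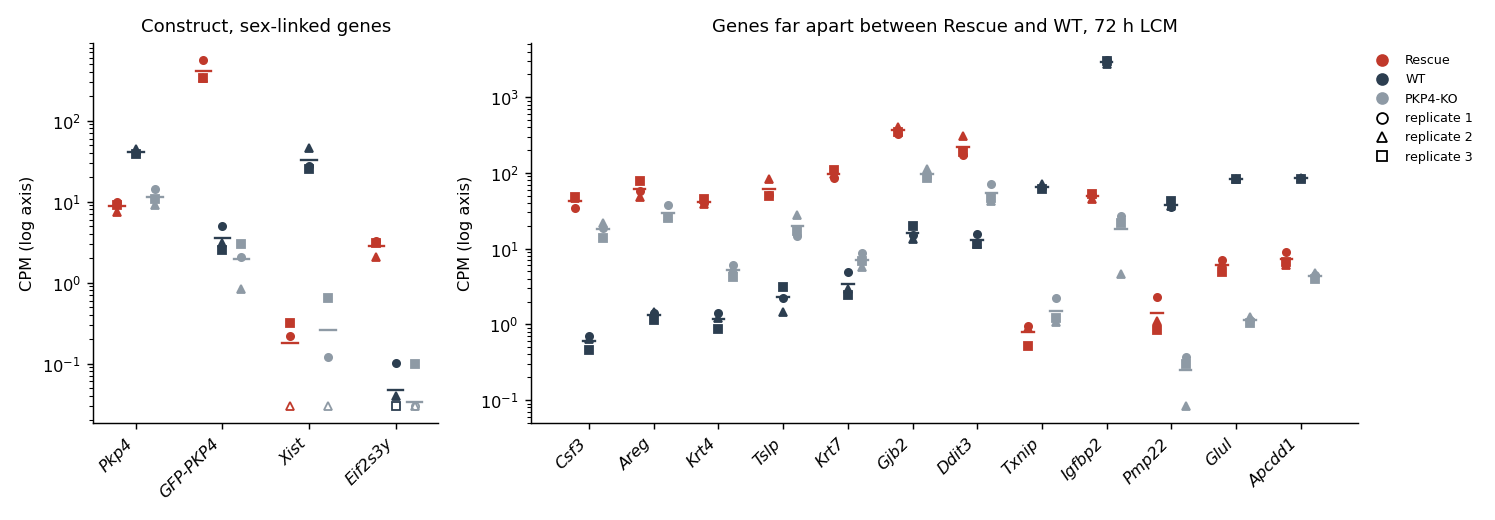
Levels in CPM, on log axes, of the construct, Pkp4 and sex-linked genes (left) and of genes far apart between Rescue and WT (right) in each Rescue, WT and PKP4-KO library at 72 h in LCM. Bars mark means of 3 libraries, symbols mark replicates, and open symbols at the lower edge stand for 0 counts. In the right panel Rescue lies above WT in all libraries from Csf3 to Ddit3 and below WT from Txnip to Apcdd1.

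Sex-linked transcripts also separated the lines. Xist, the RNA that silences an X chromosome in female cells, held 6, 0 and 6 counts in Rescue and 546, 1154 and 562 counts in WT. The Y-linked gene Eif2s3y held 90, 28 and 58 counts in Rescue and 2, 1 and 0 counts in WT, and Kdm5d held 55, 3 and 24 counts in Rescue and 0 in WT. Over the 36 libraries, Ddx3y, Uty, Kdm5d and Eif2s3y summed to between 37 and 238 counts in the 12 Rescue libraries, 0 to 12 in the 12 WT libraries and 0 to 3 in the 12 PKP4-KO libraries, whereas Xist held 0 to 37, 350 to 1385 and 0 to 13 counts. Y-linked transcripts were thus present in Rescue and at or near 0 in PKP4-KO libraries, from which the labels derive the Rescue cells, and Xist was low in both. Of the 482 X-linked genes tested, 131 were lower (27.2%) and 44 higher (9.13%) in Rescue than in WT by the test given below. Their median log2 fold change was -0.28. On chromosome 5, 273 of 976 genes were lower (28.0%) and 115 higher (11.8%), with a median of -0.26. Over all genes tested, 14.6% were lower and 17.9% higher. The other autosomes had medians between -0.14 and 0.25. The part of sex-linked expression in the other differences was not tested, and line and sex cannot be told apart in these 6 libraries.

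Rescue cells differed widely from WT cells. Of 15114 genes tested, 4899 (32.4%) had an adjusted p below 0.05 in the quasi-likelihood test of edgeR, adjusted over all genes tested by Benjamini and Hochberg's method, and such genes are termed called; a gene given as higher or lower below passed this test. Of these, 2698 (17.9%) were higher and 2201 (14.6%) lower in Rescue. A difference of at least 2-fold was found for 1682 higher (11.1%) and 939 lower genes (6.21%), and one of at least 8-fold for 551 and 146 genes. The median log2 fold change was 1.37 among the higher and -0.90 among the lower genes, so that the higher genes were farther from WT, and it was 0.03 over all genes tested. Levels of the 3 Rescue and 3 WT libraries did not overlap for 43.5% of genes, with Rescue above WT for 22.5% and below WT for 21%. Statements below that the libraries of a named gene lie apart are to be read against these shares. Many genes were named for the size of their difference, which favours such separation. Without Rescue replicate 2, 4300 genes were called, 3949 of them among the 4899 and in the same direction, none changed direction, and the median over all genes was -0.01. The share called for each gene list below is to be read against these percentages, and lists are described by counts and medians without a test of the list.

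**Figure D2:**
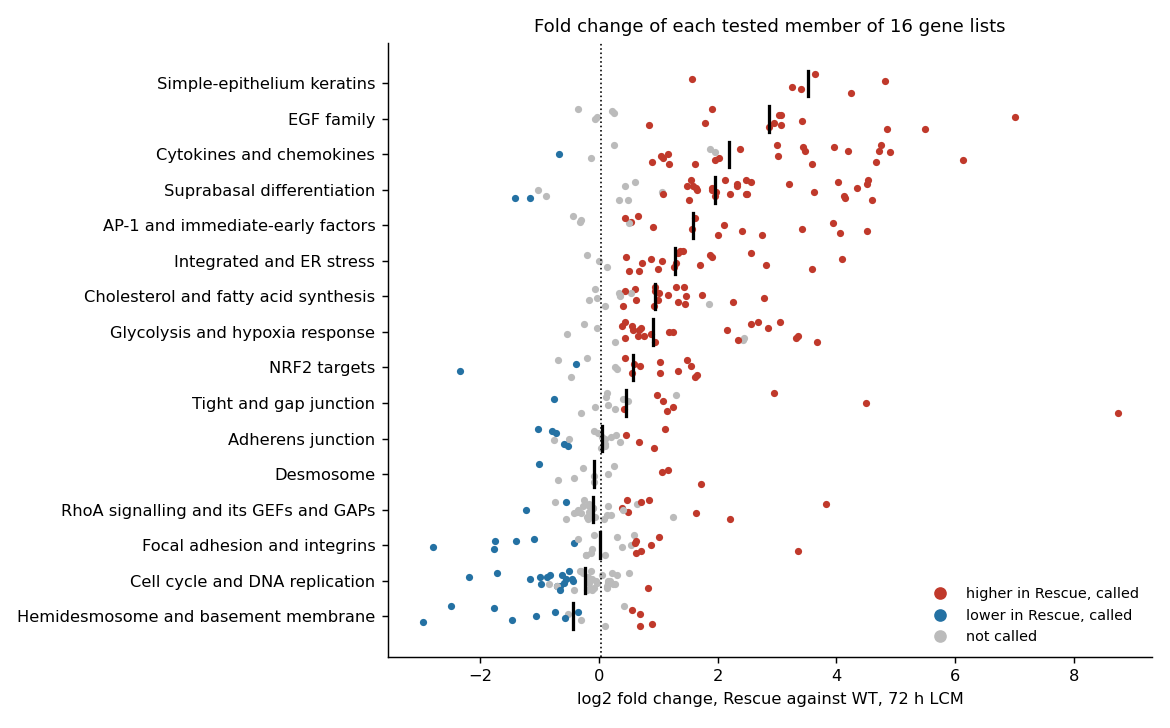
Log2 fold change, Rescue against WT at 72 h in LCM, of each tested member of 16 gene lists. Red and blue points are genes called higher or lower in Rescue, grey points are not called, black bars are list medians and the dotted line is the median of 0.03 over all 15114 genes. The EGF family has 12 red and no blue points, whereas cell cycle genes have 16 blue and 1 red.

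The largest differences among protein-coding genes above 10 CPM included secreted factors, keratinocyte differentiation genes and metabolic regulators. Among the 10 largest increases, Csf3, which encodes the granulocyte growth factor G-CSF, measured 34, 45.9 and 47.4 CPM in Rescue libraries 1 to 3 and 0.702, 0.633 and 0.455 CPM in WT libraries 1 to 3 (log2 fold change 6.14 ± 0.32, adjusted p = 2.6e-14). Areg, which encodes the EGF receptor ligand amphiregulin, measured 56.9, 47.6 and 78.1 CPM in Rescue libraries 1 to 3 and 1.4, 1.46 and 1.14 CPM in WT libraries 1 to 3. The hormone gene Stc2 measured 30.0, 49.2 and 24.7 CPM in Rescue and 0.802, 0.752 and 0.727 CPM in WT. The Rescue means of these 3 genes lay 71.2-fold, 45.6-fold and 45.5-fold above the WT means. The 10 genes were picked among those whose Rescue and WT libraries did not overlap, so that their separation is built in. Krt4, a keratin of internal stratified epithelia, measured 39.5, 38.6 and 44.9 CPM in Rescue and 1.4, 1.23 and 0.864 CPM in WT. The cornified envelope gene Sprr2e measured 55.9, 194 and 80.9 CPM in Rescue and 3.76, 2.06 and 2.32 CPM in WT. The protease inhibitor gene Spink7 measured 21.7, 88.2 and 37.2 CPM in Rescue and 1.15, 0.436 and 0.364 CPM in WT. For Sprr2e and Spink7, Rescue replicate 2 had the highest level, and both stayed called without it (log2 fold change 4.66, adjusted p = 1.6e-07 for Sprr2e and log2 fold change 5.51, adjusted p = 2.1e-07 for Spink7). Tcf23, Synpo2l, Tmem179 and Prl2c3 completed the 10, with log2 fold changes of 6.16 ± 0.56, 5.82 ± 0.49, 5.42 ± 0.23 and 5.81 ± 0.56 (SE). Prl2c3 belongs to a family of near-identical prolactin-like genes whose reads the counting could split, and its value is uncertain.

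The 10 largest decreases were led by Txnip, the gene of a thioredoxin-binding protein that limits glucose uptake, with 0.952, 0.883 and 0.525 CPM in Rescue libraries 1 to 3 and 63.2, 72.3 and 60.5 CPM in WT libraries 1 to 3 (log2 fold change -6.35 ± 0.42, adjusted p = 2.7e-12). Igfbp2, which encodes a secreted binding protein of insulin-like growth factors, measured 51.7, 44.5 and 52.6 CPM in Rescue libraries 1 to 3 and 3099, 2734 and 2978 CPM in WT libraries 1 to 3 (log2 fold change -5.89 ± 0.41, adjusted p = 6.6e-12). The myelin and epithelial membrane protein gene Pmp22 measured 2.27, 1.1 and 0.839 CPM in Rescue and 35.1, 36.1 and 42.2 CPM in WT. The 3 WT libraries lay close together for these genes, and their separation from the Rescue libraries is again built into the choice. Glul, the gene of glutamine synthetase, measured 7.11, 6.48 and 4.88 CPM in Rescue and 82.5, 82.6 and 82.3 CPM in WT. Apcdd1, an inhibitor of WNT signalling, measured 8.9, 6.04 and 6.71 CPM in Rescue and 84.9, 86.5 and 84 CPM in WT. Sesn1, a p53-responsive regulator of mTORC1, measured 5.31, 1.99 and 3.88 CPM in Rescue and 60.7, 80.4 and 81.3 CPM in WT. Slurp1, which encodes a secreted protein of the upper epidermis, was 12.4-fold lower in Rescue, opposite in direction to most other differentiation genes. Klra8, Orm1 and Palmd had log2 fold changes of -3.72 ± 0.28, -3.21 ± 0.40 and -3.16 ± 0.21 (SE). Klra8 belongs to a family of similar receptor genes and is uncertain for that reason.

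Genes of EGF receptor ligands and of the response to them were higher in Rescue. Of 17 tested members of the EGF family list, 12 were higher and 0 lower, with a median log2 fold change of 2.86 against 0.03 over all genes. Areg and Epgn lie together on chromosome 5 (GRCm39, chr5:91287451-91296291 and chr5:91175323-91183074). Epgn, the ligand epigen, measured 158, 115 and 154 CPM in Rescue libraries 1 to 3 and 14.2, 14.8 and 21.8 CPM in WT libraries 1 to 3 (log2 fold change 3.07 ± 0.24, adjusted p = 7.4e-11). Tgfa, the ligand TGF-alpha, measured 139, 96.5 and 122 CPM in Rescue and 63.6, 66.2 and 68.4 CPM in WT (log2 fold change 0.85 ± 0.20, adjusted p = 0.0013). Both ligands were above WT in every Rescue library, by 8.42-fold and 1.81-fold in the means. Etv4, a transcription factor gene induced by ERK signalling, measured 73.2, 104 and 89.5 CPM in Rescue and 6.52, 8.55 and 9.64 CPM in WT. Its relative Etv5 measured 20.7, 17.3 and 13.5 CPM in Rescue and 0.501, 0.356 and 0.909 CPM in WT. The 5 members that were not called had log2 fold changes between -0.35 and 0.26.

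Immediate-early genes, which growth factor signals switch on within minutes, and genes of cytokines were mostly higher in Rescue. Of 18 AP-1 and immediate-early genes tested, 14 were higher and 0 lower (median 1.59). Fosl1, the AP-1 subunit FRA1, measured 76.6, 158 and 86.7 CPM in Rescue libraries 1 to 3 and 5.26, 6.69 and 7.18 CPM in WT libraries 1 to 3 (log2 fold change 4.07 ± 0.31, adjusted p = 3.1e-11). Junb was 2.96-fold higher with little spread, at 359.9, 429.9 and 402 CPM in Rescue and 137, 133 and 133 CPM in WT, whereas Jund was not called and measured 171, 122 and 206 CPM in Rescue and 211, 234 and 231 CPM in WT (log2 fold change -0.44 ± 0.42, adjusted p = 0.46). The ERK phosphatase gene Dusp5 and the immediate-early factor Egr3 had log2 fold changes of 3.43 ± 0.28 and 4.51 ± 0.50. Of 26 cytokine and chemokine genes, 21 were higher and 1 lower (median 2.2). Tslp, an epithelial cytokine that acts on dendritic and T cells, measured 51.1, 81.9 and 49.5 CPM in Rescue libraries 1 to 3 and 2.21, 1.46 and 3.14 CPM in WT libraries 1 to 3 (log2 fold change 4.75 ± 0.38, adjusted p = 9.4e-11). The alarmin Il33 measured 138, 94.4 and 131 CPM in Rescue and 43.4, 53.9 and 64.5 CPM in WT. The neutrophil chemoattractant gene Cxcl5 measured 239, 150.4 and 244 CPM in Rescue and 70.1, 62.2 and 72.8 CPM in WT. Immune markers summed to at most 1.17 CPM in the same libraries, and which cells held the cytokine transcripts was not tested.

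Differentiation genes were mostly higher in Rescue in low calcium. Of 37 suprabasal genes tested, 28 were higher and 2 lower, the median log2 fold change being 1.97, and 27 were higher without Rescue replicate 2 (median 1.81). Sprr1a, a crosslinked protein of the cornified envelope, measured 3328, 8242 and 4186 CPM in Rescue libraries 1 to 3 and 984, 795 and 886 CPM in WT libraries 1 to 3 (log2 fold change 2.56 ± 0.33, adjusted p = 5.6e-07). Sprr2d measured 764, 2346 and 1033 CPM in Rescue and 76.8, 50.8 and 53.6 CPM in WT (log2 fold change 4.51 ± 0.53, adjusted p = 1.0e-07; without Rescue replicate 2, log2 fold change 3.89, adjusted p = 6.4e-07). Rescue replicate 2 held the highest level of both, and the other Rescue libraries were also above all WT libraries. Alox12b, a lipoxygenase needed for the lipid barrier, measured 134, 184 and 123 CPM in Rescue and 6.57, 4.75 and 6.77 CPM in WT. The kallikreins Klk5 and Klk7 are proteases that cleave junctions between corneocytes. Klk5 measured 22.9, 33.9 and 17.9 CPM in Rescue and 1.5, 0.911 and 0.818 CPM in WT. Klk7 measured 127, 176 and 94.7 CPM in Rescue and 43.7, 25.9 and 32.2 CPM in WT. Of 7 basal and stress keratins, 1 was higher and 2 were lower. Krt6b, a keratin of stressed and wounded epidermis, was 1.74-fold higher. The basal keratin gene Krt14 measured 18689.6, 20726 and 22764 CPM in Rescue libraries 1 to 3 and 39022, 30045 and 35017 CPM in WT libraries 1 to 3 (log2 fold change -0.74 ± 0.15, adjusted p = 2.5e-04). Krt15 measured 32.2, 29.4 and 29.8 CPM in Rescue and 73.2, 46.2 and 63.8 CPM in WT, lower in all Rescue libraries (log2 fold change -1.0 ± 0.25, adjusted p = 0.0024). All 6 tested keratins of simple epithelia were higher, 5 of them without Rescue replicate 2. Krt7 measured 86.1, 95.7 and 108 CPM in Rescue and 4.96, 2.89 and 2.41 CPM in WT. Krt23 measured 127, 129 and 125 CPM in Rescue and 14.1, 8.47 and 8.09 CPM in WT. Krt8 was low in Rescue and near the floor of 3 counts in WT, with 1.87, 3.68 and 1.99 CPM in Rescue and 0, 0.475 and 0.182 CPM in WT.

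Promoters of tested list members were searched for short motifs, here and for the lists below. The search took in every tested member with an entry, called or not. Its shares thus describe how the lists were composed and not the difference between Rescue and WT. In RefSeq's promoter sequences of GRCm38.p6, which run from 250 bases before to 50 after a start, the AP-1 motif TGANTCA was found on either strand in 10 of 32 suprabasal genes with an entry (31.2%) and in 8.97% of all 27025 genes with one. A match is a description of these letters and not a binding site. The 250 bases before the starts of Sprr1a (GRCm38.p6, chr3:92485882-92486131, reverse strand) and Sprr2d (GRCm38.p6, chr3:92338890-92339139, forward strand) are shown as examples among called genes, 5' to 3' on the gene's strand, with the motif in capitals.
Sprr1a promoter: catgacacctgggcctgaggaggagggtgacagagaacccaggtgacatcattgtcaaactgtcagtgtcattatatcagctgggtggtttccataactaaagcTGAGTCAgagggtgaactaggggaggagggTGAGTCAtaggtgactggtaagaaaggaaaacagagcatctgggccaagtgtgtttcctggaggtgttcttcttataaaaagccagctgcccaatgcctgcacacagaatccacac
Sprr2d promoter: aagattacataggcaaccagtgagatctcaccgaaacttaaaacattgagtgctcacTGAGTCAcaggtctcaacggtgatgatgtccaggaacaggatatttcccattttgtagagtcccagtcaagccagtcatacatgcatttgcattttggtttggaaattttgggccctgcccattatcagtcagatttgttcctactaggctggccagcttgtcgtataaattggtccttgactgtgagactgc

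The integrated stress response, in which stress kinases raise translation of ATF4 and thereby genes of amino acid supply, was represented by most of its genes. Of 22 stress genes tested, 19 were higher and 0 lower, the median log2 fold change being 1.28, and the same numbers were called without Rescue replicate 2. Ddit3, the pro-apoptotic factor CHOP, measured 172, 309 and 186 CPM in Rescue libraries 1 to 3 and 15.5, 11.6 and 11.6 CPM in WT libraries 1 to 3 (log2 fold change 4.1 ± 0.28, adjusted p = 4.0e-12). Trib3, an ATF4-induced pseudokinase, measured 292, 344 and 321 CPM in Rescue libraries 1 to 3 and 21, 26 and 32 CPM in WT libraries 1 to 3 (log2 fold change 3.6 ± 0.20, adjusted p = 9.4e-14). Chac1, a glutathione-degrading enzyme gene, measured 131, 166 and 159 CPM in Rescue and 19.1, 21.9 and 23.7 CPM in WT. Herpud1, of endoplasmic reticulum protein degradation, measured 178, 197 and 190.1 CPM in Rescue and 27.8, 34.3 and 33 CPM in WT. For these 4 genes every Rescue library lay above every WT library. Atf4 itself was 3.74-fold higher (log2 fold change 1.9 ± 0.18, adjusted p = 2.6e-09) and asparagine synthetase (Asns) 1.61-fold higher (log2 fold change 0.68 ± 0.14, adjusted p = 2.6e-04). The composite motif TGATGNAA, to which ATF4 with C/EBP partners binds, was found in 6 of 21 stress genes with a promoter entry (28.6%), Chac1, Herpud1, Trib3 and Asns among them, and in 4.51% of all genes. It is shown in capitals in the 250 bases before the starts of Chac1 (GRCm38.p6, chr2:119350992-119351241, forward strand) and Herpud1 (GRCm38.p6, chr8:94386179-94386428, forward strand), where it stands on the opposite strand.
Chac1 promoter: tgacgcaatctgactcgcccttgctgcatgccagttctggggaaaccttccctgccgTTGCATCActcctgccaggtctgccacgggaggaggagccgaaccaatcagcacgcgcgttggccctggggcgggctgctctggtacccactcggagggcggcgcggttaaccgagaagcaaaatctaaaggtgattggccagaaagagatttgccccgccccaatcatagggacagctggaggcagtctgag
Herpud1 promoter: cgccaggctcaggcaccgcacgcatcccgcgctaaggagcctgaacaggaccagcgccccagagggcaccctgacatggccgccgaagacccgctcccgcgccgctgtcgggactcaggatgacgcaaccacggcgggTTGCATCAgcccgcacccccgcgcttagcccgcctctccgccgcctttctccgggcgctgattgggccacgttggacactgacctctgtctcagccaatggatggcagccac

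Genes of glycolysis and the hypoxia response and of lipid synthesis were higher in Rescue, and NRF2 targets were mostly higher, with 2 lower. Of 28 glycolysis and hypoxia genes tested, 22 were higher and 0 lower (median 0.91). Ndrg1, a hypoxia-responsive gene, measured 815, 727 and 811 CPM in Rescue libraries 1 to 3 and 92.7, 88.4 and 104 CPM in WT libraries 1 to 3 (log2 fold change 3.05 ± 0.18, adjusted p = 1.9e-13). The angiogenic factor gene Vegfa measured 90.8, 50.1 and 85.2 CPM in Rescue and 6.92, 6.77 and 9.0 CPM in WT (log2 fold change 3.32 ± 0.31, adjusted p = 1.4e-09). The enzyme genes Ldha and Pkm, of the last steps of glycolysis, were 1.69-fold and 1.57-fold higher. Of 27 genes of cholesterol and fatty acid synthesis, 18 were higher and 0 lower (median 0.94), with 20 higher without Rescue replicate 2. Without Rescue replicate 1, 13 were higher (median 0.69), and without TMM factors 12 were, with 0 lower in both. Dhcr7, the last enzyme of cholesterol synthesis, measured 36.6, 52.7 and 35.5 CPM in Rescue and 10.2, 13 and 14.2 CPM in WT. Squalene synthase (Fdft1) measured 143, 206 and 158 CPM in Rescue and 64.2, 55.7 and 63.5 CPM in WT. Fatty acid synthase (Fasn) measured 272, 224 and 216 CPM in Rescue and 136, 181 and 146 CPM in WT (log2 fold change 0.62 ± 0.20, adjusted p = 0.021), and its call was lost without TMM factors and without Rescue replicate 1, WT replicate 1 or WT replicate 3 (adjusted p = 0.14, 0.091, 0.095 and 0.07). Of 18 NRF2 targets, 11 were higher and 2 lower (median 0.57), beside 17.9% higher and 14.6% lower over all genes. Nqo1 and Hmox1, which reduce quinones and degrade haem, were 3.07-fold and 3.13-fold higher, whereas Gclc, the catalytic subunit that starts glutathione synthesis, measured 194, 94.2 and 175 CPM in Rescue and 711, 873 and 767 CPM in WT (log2 fold change -2.34 ± 0.28, adjusted p = 1.5e-07). The hypoxia motif TACGTG was found in 8 of 27 glycolysis and hypoxia promoters (29.6%) against 3.67% of all genes, the NRF2 motif TGACNNNGC in 7 of 15 (46.7%) against 14%, and the sterol motif TCACNCCAC in 1 of 17 cholesterol promoters (5.88%) against 1.44%.

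Among genes of cell-cell junctions, in which PKP4 resides, the adherens junction and desmosome lists had called genes in both directions. Called tight and gap junction genes were mostly higher in Rescue. Of 21 adherens junction genes tested, 4 were higher and 5 lower (median 0.05), and of 11 desmosome genes 3 were higher and 1 lower (median -0.08), beside 17.9% higher and 14.6% lower over all genes. Without Rescue replicate 2, 3 adherens junction genes were higher and 3 lower, and 3 desmosome genes were higher and 0 lower, with a desmosome median of 0.10. Without Rescue replicate 1, 3 adherens junction genes were higher and 6 lower, and 0 desmosome genes were higher and 1 lower, with a desmosome median of -0.19. Leaving out WT replicate 1 or WT replicate 2 left 1 desmosome gene higher. Cdh1, which encodes E-cadherin, measured 149, 103 and 121 CPM in Rescue libraries 1 to 3 and 68.1, 86.2 and 78.4 CPM in WT libraries 1 to 3 (log2 fold change 0.68 ± 0.18, adjusted p = 0.0035), a 1.61-fold higher level whose call was lost without TMM factors (adjusted p = 0.075). Jup, Ctnnb1, Dsg3 and Dsp, which encode other core junction proteins, were not called. Plakoglobin (Jup) measured 1486 ± 237 CPM in Rescue and 1374 ± 78 CPM in WT, and beta-catenin (Ctnnb1) 379 ± 134 CPM in Rescue and 538 ± 35.3 CPM in WT (SD, n = 3). Desmoglein 3 (Dsg3) measured 277 ± 86.1 CPM in Rescue and 233 ± 42.7 CPM in WT, and desmoplakin (Dsp) 2059.5 ± 761 CPM in Rescue and 1844 ± 227 CPM in WT. The Rescue libraries of Dsp lay on both sides of the WT libraries, with 2809, 1287 and 2083 CPM in Rescue and 1732, 2105 and 1694 CPM in WT. Among armadillo relatives of PKP4, Pkp3 measured 656, 572 and 659.5 CPM in Rescue and 432, 421 and 439.5 CPM in WT (log2 fold change 0.55 ± 0.14, adjusted p = 0.0028). Arvcf measured 22.6, 19.4 and 23.1 CPM in Rescue and 13.3, 15.7 and 13.6 CPM in WT (log2 fold change 0.61 ± 0.15, adjusted p = 0.0024). Both calls were lost without TMM factors (adjusted p = 0.054 and 0.057). Of 18 tight and gap junction genes, 8 were higher and 1 lower (median 0.46). Gjb2, the gap junction protein connexin 26, measured 331, 408 and 352 CPM in Rescue libraries 1 to 3 and 14.9, 13.5 and 19.7 CPM in WT libraries 1 to 3 (log2 fold change 4.5 ± 0.23, adjusted p = 2.0e-14). The claudin gene Cldn4 measured 191, 232 and 201 CPM in Rescue and 97.5, 90.3 and 108 CPM in WT. Another claudin gene, Cldn23, measured 8.39, 9.27 and 8.87 CPM in Rescue and 1.15, 1.11 and 1.14 CPM in WT, with little spread in either group. The tight junction scaffold Tjp1 measured 93.3, 48.7 and 68.5 CPM in Rescue and 43.5, 64.1 and 42.5 CPM in WT (log2 fold change 0.49 ± 0.26, adjusted p = 0.16). Tricellulin (Marveld2) measured 9.93, 7.88 and 7.87 CPM in Rescue and 5.71, 5.78 and 7.82 CPM in WT (log2 fold change 0.41 ± 0.29, adjusted p = 0.31). Neither was called.

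Of 35 RhoA signalling genes, 8 were higher and 2 lower (median -0.09), beside 17.9% higher and 14.6% lower over all genes. The same numbers were called without Rescue replicate 2, with a median of 0.07. Arhgef2 (GEF-H1), a microtubule-regulated activator of RhoA, measured 84.2, 78.1 and 73.5 CPM in Rescue libraries 1 to 3 and 22.8, 28.7 and 24.1 CPM in WT libraries 1 to 3 (log2 fold change 1.64 ± 0.14, adjusted p = 4.0e-10). Rnd1, an antagonist of RhoA, measured 22.3, 39 and 24.7 CPM in Rescue and 2.06, 1.74 and 2.23 CPM in WT. Dlc1, a GAP that inactivates RhoA, measured 12.5, 8.1 and 8.81 CPM in Rescue and 17.8, 30.4 and 20.6 CPM in WT. The activator Arhgef2 and the antagonist Rnd1 were thus both higher, and the inactivator Dlc1 was lower. Rhoa itself measured 402 ± 31.5 CPM in Rescue and 351 ± 21.7 CPM in WT (SD, n = 3; log2 fold change 0.20 ± 0.10, adjusted p = 0.15), and Arhgap23 59.4 ± 5.58 CPM in Rescue and 63.2 ± 6.05 CPM in WT (log2 fold change -0.09 ± 0.14, adjusted p = 0.69). Neither was called. The GTPase genes Rac1 and Cdc42 were 1.4-fold and 1.31-fold higher (adjusted p = 0.0074 and 0.013). Each call was lost in 4 alternatives, among them that without Rescue replicate 3 for Rac1 (adjusted p = 0.06) and that without WT replicate 1 for Cdc42 (adjusted p = 0.078). Limk1, the kinase that inhibits cofilin, was 1.42-fold lower (log2 fold change -0.51 ± 0.20, adjusted p = 0.046), and this call was lost in 8 alternatives, among them those without Rescue replicates 1 and 3 (adjusted p = 0.13 and 0.13) and without WT replicates 1 to 3 (adjusted p = 0.085, 0.1 and 0.076). Mylk and Myl9 held at most 4 counts in any of the 6 libraries and were not tested. Of 17 myosin, LIMK and cofilin genes 3 were higher and 4 lower, and of 21 actin and SRF target genes 7 were higher and 3 lower. Actb, beta-actin, measured 2624, 10476 and 3273 CPM in Rescue and 1638, 1654 and 1559.9 CPM in WT (log2 fold change 1.75 ± 0.61, adjusted p = 0.028). The call was lost without Rescue replicate 2 (log2 fold change 0.87, adjusted p = 0.32) and without WT replicate 1, 2 or 3 (adjusted p = 0.071, 0.072 and 0.078).

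Genes of attachment to the matrix differed in both directions. Of 16 hemidesmosome and basement membrane genes tested, 4 were higher and 8 lower (median -0.44), and without Rescue replicate 2 there were 5 higher and 4 lower (median -0.26). Col7a1, the anchoring fibril collagen, measured 15, 11.9 and 15.5 CPM in Rescue libraries 1 to 3 and 50.2, 50.1 and 43.6 CPM in WT libraries 1 to 3 (log2 fold change -1.76 ± 0.23, adjusted p = 6.8e-07). The basement membrane collagen gene Col4a2 measured 3.66, 2.72 and 4.2 CPM in Rescue and 18.6, 24.7 and 16.4 CPM in WT. Of 24 focal adhesion and integrin genes, 7 were higher and 6 lower (median 0.02). Tns3, an adaptor that links integrins to actin, measured 13, 8.98 and 13.2 CPM in Rescue and 77.3, 95.5 and 71 CPM in WT (log2 fold change -2.79 ± 0.25, adjusted p = 8.9e-10). The integrin subunits Itgb5 and Itgb6 were 3.38-fold and 3.41-fold lower and the caveolar protein gene Cav1 2.64-fold lower, whereas Ptk2, the focal adhesion kinase, was 1.64-fold higher (log2 fold change 0.72 ± 0.20, adjusted p = 0.0068), a call lost without TMM factors (adjusted p = 0.088). Of 19 matrix protease and inhibitor genes, 5 were higher and 6 lower. Plaur, the urokinase receptor, measured 51.8, 68.3 and 62.8 CPM in Rescue and 4.11, 3.96 and 5.64 CPM in WT. The metalloprotease inhibitor gene Timp2 measured 89.3, 67.6 and 103 CPM in Rescue and 201, 230.5 and 199 CPM in WT. Rescue and WT libraries did not overlap for any of the genes named in this paragraph, beside 43.5% of all genes tested. Called list members were named by the size of their difference, so that this separation is in part built in.

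Genes of cell division were lower in part. Of 44 cell cycle and replication genes tested, 1 was higher and 16 were lower (median -0.23), and without Rescue replicate 2 these were 2 and 16. Pcna, the replication clamp, measured 164, 143 and 185 CPM in Rescue libraries 1 to 3 and 359, 326 and 412 CPM in WT libraries 1 to 3 (log2 fold change -1.16 ± 0.13, adjusted p = 5.3e-08). Mcm7, a subunit of the replicative helicase, measured 90.8, 89 and 96.6 CPM in Rescue and 184, 182 and 184 CPM in WT. Rrm1, a subunit of ribonucleotide reductase, measured 292, 156 and 264 CPM in Rescue and 721, 824 and 797 CPM in WT (log2 fold change -1.72 ± 0.21, adjusted p = 2.3e-07), and every WT library lay above every Rescue library for these 3 genes. Cyclin E2 (Ccne2) was 4.59-fold lower. Of 23 p53 targets and cell cycle inhibitors, 6 were higher and 4 lower (median -0.11). Gadd45a and the cyclin-dependent kinase inhibitor Cdkn1c were 5.55-fold and 15.5-fold higher, whereas the death receptor gene Fas was 6.83-fold lower. Of 18 TGF-beta and BMP genes 5 were higher and 5 lower. The activin antagonist follistatin (Fst) measured 154, 69.3 and 151 CPM in Rescue and 6.07, 7.68 and 6.59 CPM in WT. The BMP-responsive inhibitor gene Id2 measured 15.8, 10.1 and 20.0 CPM in Rescue and 73.2, 85.8 and 76.6 CPM in WT. Of 21 YAP/TAZ genes 5 were higher and 6 lower, with Ccn2 3.69-fold lower and the partner factor Tead2 9.58-fold higher. Of 30 Hox and other positional genes 12 were higher and 3 lower (median 1.0), and these genes mark position along the body axis. Hoxb2 measured 3.66, 3.53 and 3.88 CPM in Rescue and 0.10, 0.079 and 0.091 CPM in WT, and Hoxa3 1.32, 1.03 and 1.36 CPM in Rescue and 0, 0.040 and 0.045 CPM in WT, so that both were under the floor of 3 counts in every WT library. Of the remaining lists, keratinocyte transcription factors had 13 of 30 higher and 2 lower, and interferon-stimulated genes 6 of 21 higher and 4 lower. Calcium handling genes had 7 of 18 higher and 5 lower, and collagens and matrix proteins 3 of 22 higher and 4 lower, or 5 higher and 2 lower without Rescue replicate 2. Genes of epithelial-mesenchymal transition had 2 of 13 higher and 1 lower, and S100 proteins 3 of 11 higher and 1 lower.

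The difference between Rescue and WT was compared with that at 24 h in LCM by testing the change of the difference itself. It changed for 591 of 15114 genes (3.91%), of which 393 had a higher log2 difference at 72 h (2.6%) and 198 a lower one (1.31%). Without TMM factors the split was 382 and 114, with the median over all genes at 0.12 instead of 0.01. Suprabasal genes were among those with a higher difference at 72 h, 13 of 37 with 2 lower, as were 7 of 17 EGF family genes, 5 of 18 tight and gap junction genes, 6 of 27 genes of cholesterol and fatty acid synthesis and 6 of 28 glycolysis and hypoxia genes, with none lower in the last 4. None of the 22 stress genes was called in either direction, with a median change of 0.27 against 0.01 over all genes, whereas DESeq2 called 4 of them higher and the fit without TMM factors 1. The kallikrein gene Klk6 measured 0.642 ± 0.193 CPM in Rescue and 0.975 ± 0.645 CPM in WT at 24 h, and 12.3 ± 4.15 CPM in Rescue and 0.586 ± 0.394 CPM in WT at 72 h, a change of 4.95 ± 0.78 on the log2 scale (adjusted p = 1.9e-04). At 24 h, Rescue was not called different from WT for Klk6 (adjusted p = 0.51), and at 72 h it was higher. Krt15 went the opposite way, with 34.5 ± 12 CPM in Rescue and 7.03 ± 0.925 CPM in WT at 24 h and 30.4 ± 1.5 CPM in Rescue and 61.1 ± 13.7 CPM in WT at 72 h (change -3.29 ± 0.36, adjusted p = 2.5e-06). Krt15 was among the 5 largest changes above a mean of 10 CPM, as were Prl2c3, Klk7 (2.88 ± 0.42) and the phospholipase gene Pla2g4e (2.72 ± 0.46).

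The difference between Rescue and WT changed for more genes with calcium than with time. The difference between Rescue and WT at 72 h itself differed between HCM and LCM for 2203 genes (14.6%), 1029 with a higher (6.81%) and 1174 with a lower log2 difference in HCM (7.77%), and for 1440 genes without Rescue replicate 2 of the LCM group. Without TMM factors this split was 1715 and 579, and the median over all genes moved from 0.02 to 0.45. A lower difference in HCM was called for 27 of 37 suprabasal genes, 18 of 26 cytokine genes and 10 of 17 EGF family genes, with 0 higher in these lists, and for 10 of 18 AP-1 genes with 2 higher. Without Rescue replicate 2 of the LCM group 24, 14, 10 and 8 genes of these lists were lower and 0, 0, 0 and 1 higher. Without TMM factors 23, 11, 8 and 7 were lower and 1, 1, 2 and 3 higher. Other groups that were high in Rescue in LCM did not share this pattern throughout. Of 22 stress genes 9 had a lower and 1 a higher difference in HCM, but 4 and 3 without TMM factors. Of 27 genes of cholesterol and fatty acid synthesis 5 were lower and 1 higher, but 2 and 3 without TMM factors. The median log2 fold change of suprabasal genes was 1.97 in LCM and -0.25 in HCM, and that of the EGF family 2.86 and 0.39. Areg measured 4.92 ± 1.19 CPM in Rescue and 5.63 ± 1.32 CPM in WT in HCM, beside 60.8 ± 15.6 CPM in Rescue and 1.33 ± 0.175 CPM in WT in LCM (difference -5.71 ± 0.42, adjusted p = 3.5e-10). Csf3 measured 3.19 ± 1.11 CPM in Rescue and 3.5 ± 0.516 CPM in WT in HCM (difference -6.28 ± 0.41, adjusted p = 7.2e-11). In HCM the means of Rescue and WT lay within the spread of the libraries for both genes. Glul went the other way, with 73 ± 17.3 CPM in Rescue and 38.3 ± 10.2 CPM in WT in HCM beside 6.15 ± 1.15 CPM in Rescue and 82.5 ± 0.128 CPM in WT in LCM (difference 4.67 ± 0.52). Of 28 glycolysis and hypoxia genes 6 had a higher and 3 a lower difference in HCM, and without TMM factors 11 and 1. Defb14, an antimicrobial defensin gene, and the metallothionein genes Mt2 and Mt4 were the other 3 of the 5 largest. In LCM, Defb14 measured 26.6, 485 and 43.3 CPM in Rescue and 14.6, 11 and 9.5 CPM in WT (log2 fold change 3.98 ± 1.23, adjusted p = 0.013), a call lost without Rescue replicate 2 (log2 fold change 1.58, adjusted p = 0.32), WT replicate 2 or WT replicate 3 (adjusted p = 0.0502 and 0.054). Mt2 measured 37.1, 429.6 and 70.6 CPM in Rescue and 63.8, 59.5 and 47.5 CPM in WT, and Mt4 0.659, 6.99 and 1.1 CPM in Rescue and 6.77, 5.07 and 4.64 CPM in WT. Rescue replicate 2 held by far the highest level of Defb14 and Mt2.

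**Figure D3:**
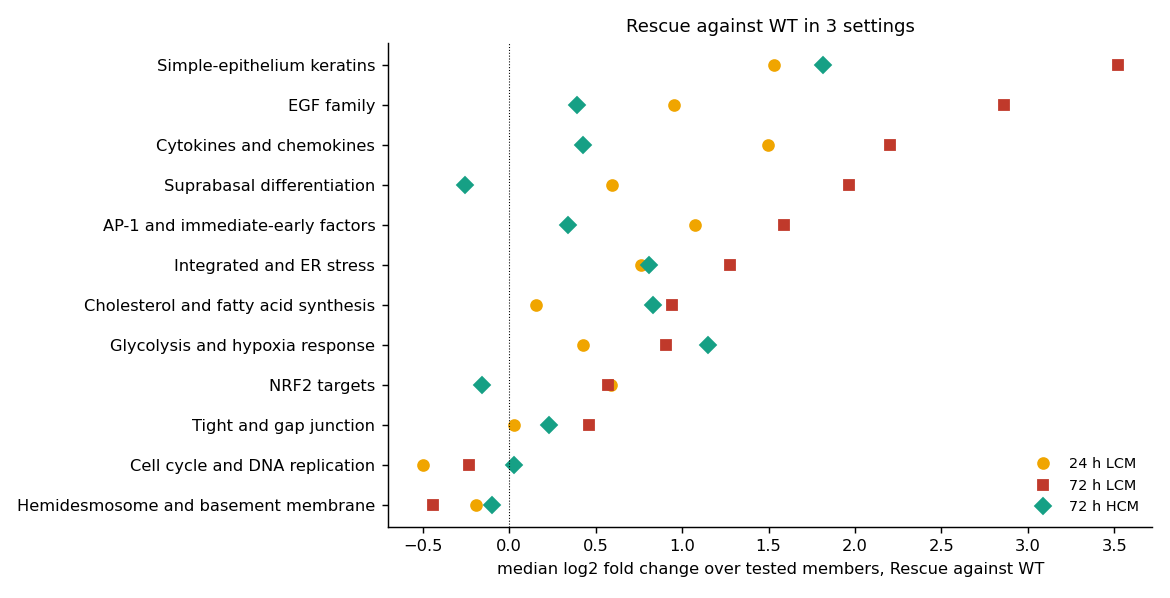
Median log2 fold change, Rescue against WT, over the tested members of 12 gene lists at 24 h in LCM, 72 h in LCM and 72 h in HCM. The medians of the EGF family, cytokine and suprabasal lists are highest at 72 h in LCM (2.86, 2.2 and 1.97) and lowest at 72 h in HCM, while the glycolysis and hypoxia list is highest in HCM (1.15).

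PKP4-KO libraries of the same time and medium were set beside Rescue and WT. Y-linked transcripts summed to between 37 and 238 counts in Rescue and at most 3 counts in PKP4-KO libraries, so that effects of the construct and differences between lines cannot be told apart in a comparison of Rescue with PKP4-KO. PKP4-KO differed from WT for 6809 genes (45.1%) and Rescue from PKP4-KO for 6281 (41.6%). Rescue against WT and PKP4-KO against WT share the 3 WT libraries, and their values are given side by side without a test of their overlap. Of the 28 glycolysis and hypoxia genes, 25 were higher in PKP4-KO than in WT (median 2.12), and in the direct test 20 were lower and 3 higher in Rescue than in PKP4-KO. Without TMM factors these were 24 higher in PKP4-KO than in WT and 17 lower and 3 higher in Rescue than in PKP4-KO. Ndrg1 had 1586 ± 312 CPM in PKP4-KO, above both Rescue and WT. Txnip, Stc2 and Trib3 were not called between Rescue and PKP4-KO, with 1.51, 28.8 and 342 CPM in PKP4-KO and 0.787, 34.6 and 319 CPM in Rescue. Igfbp2, Pmp22 and Glul lay lower still in PKP4-KO, at 17.9, 0.25 and 1.15 CPM, and were called higher in Rescue than in PKP4-KO (log2 fold changes 1.46, 2.42 and 2.42). The Rescue levels of these 3 genes lay between those of PKP4-KO and WT.

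Junction and attachment genes were higher in Rescue than in PKP4-KO. All desmosome genes called between Rescue and PKP4-KO, 8 of 11, were higher in Rescue, as were 13 of 21 adherens junction genes (2 lower), 16 of 18 tight and gap junction genes (1 lower), 10 of 16 hemidesmosome and basement membrane genes (none lower) and 16 of 21 YAP/TAZ genes (1 lower). Without TMM factors 10, 15, 17, 11 and 16 genes of these lists were higher, and 0, 1, 0, 0 and 1 lower. Over all genes, 23.3% were higher and 18.3% lower, and without TMM factors the split moved from 3520 and 2761 to 4872 and 1461, with the median over all genes at 0.38. Dsg3 had 78.8 CPM in PKP4-KO beside 277 in Rescue and 233 in WT, and Tjp1 12.6 beside 70.1 and 50.04 CPM. For these genes the Rescue level was not called different from WT and was called higher than PKP4-KO (log2 fold changes 1.81 ± 0.27 and 2.47 ± 0.28). Sprr2d, Krt7 and Dusp5 had 70.8, 7.13 and 3.86 CPM in PKP4-KO, beside 60.4, 3.42 and 4.5 CPM in WT, and were higher in Rescue than in either (Rescue against PKP4-KO 4.29 ± 0.53, 3.76 ± 0.25 and 3.66 ± 0.28). Cdh1 had 43.4 ± 7.9 CPM in PKP4-KO, and was called lower there than in WT (adjusted p = 4.0e-04), whereas it was higher in Rescue. Krt15 had 2056 CPM in PKP4-KO beside 30.4 CPM in Rescue and 61.1 CPM in WT (Rescue against PKP4-KO -6.08 ± 0.31).

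**Figure D4:**
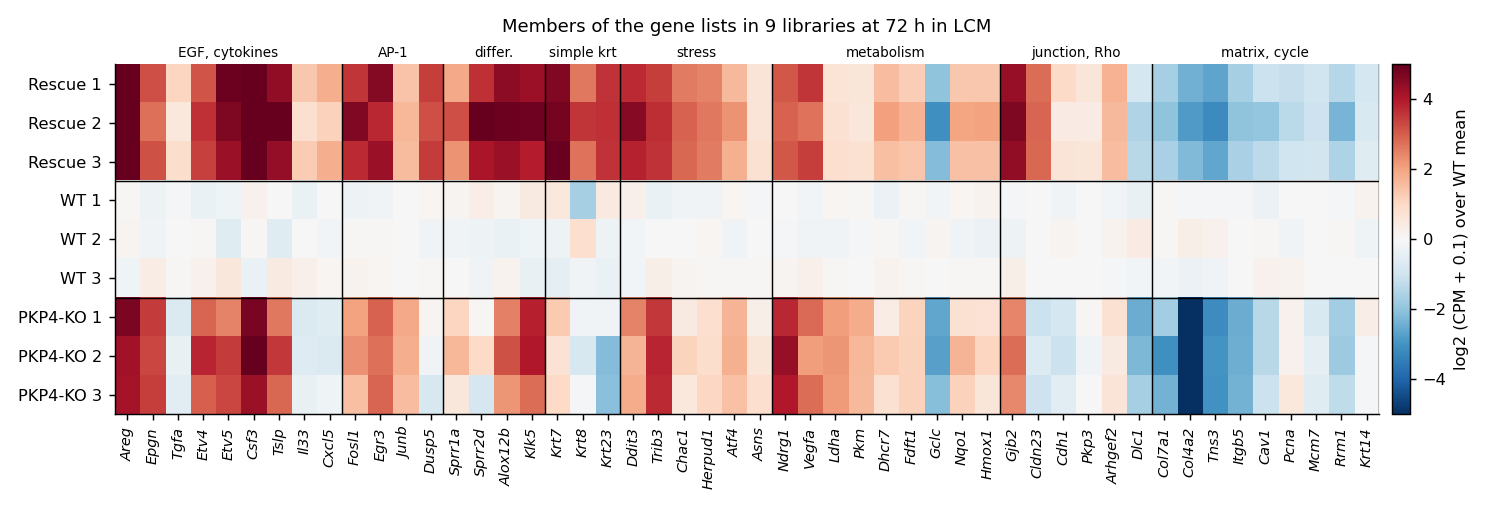
Level of 50 named genes in each Rescue, WT and PKP4-KO library at 72 h in LCM, as log2 of CPM plus 0.1 relative to the WT mean, with colours limited to 5 in either direction. Ndrg1 and Trib3 are high in both Rescue and PKP4-KO, whereas Sprr2d, Dusp5, Krt23 and Cldn23 are high in the 3 Rescue libraries and not in PKP4-KO.

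Short genes were the ones whose values turned most on Rescue replicate 2. In the shortest of 10 equal classes of tested genes by length (55 to 876 bp), its levels lay 0.47 above the Rescue mean in the median (log2), and in the longest class -0.28 from it. Rescue replicate 1 deviated the opposite way, with -0.31 and 0.25, whereas WT libraries stayed between -0.09 and 0.15 in all classes. The Rescue mean includes replicate 2, so that part of the opposite deviation of replicate 1 follows from that of replicate 2. The median log2 fold change of the shortest class was 0.36, and -0.51 without Rescue replicate 2. The small S100 calcium-binding proteins are examples. S100a6 measured 245, 3996 and 523 CPM in Rescue and 834, 801 and 635 CPM in WT (log2 fold change 1.07 ± 0.95, adjusted p = 0.43). S100a8 measured 38.8, 452 and 61.5 CPM in Rescue and 15.8, 12 and 10.6 CPM in WT. S100a9 measured 123, 962 and 181 CPM in Rescue and 43, 20.9 and 23.2 CPM in WT. For all 3, Rescue replicate 2 lay far above the other 5 libraries. S100a9 stayed called without Rescue replicate 2 (log2 fold change 2.39, adjusted p = 0.019) and S100a8 did not (log2 fold change 1.97, adjusted p = 0.14). The median over the 11 S100 genes was 1.07, and -0.14 without that library.

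**Figure D5:**
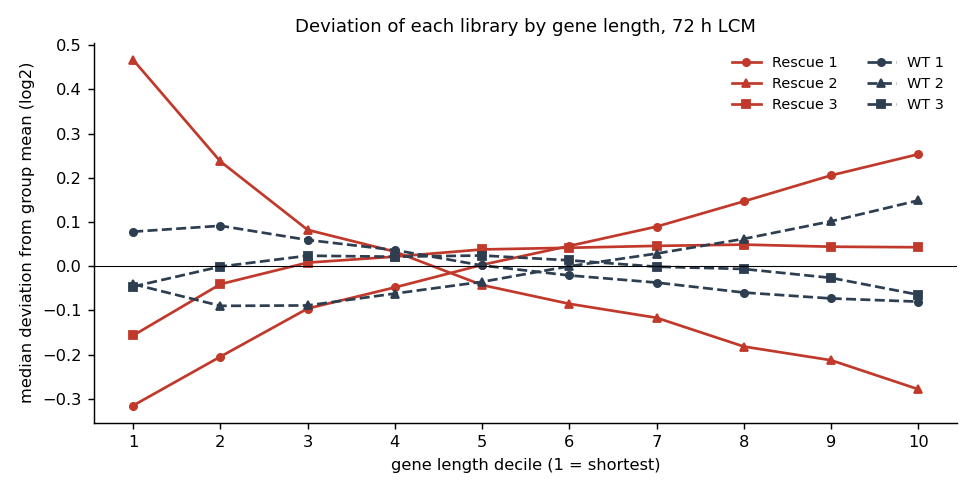
Median deviation of each library from the mean of its group (log2), by length class of genes from shortest (1) to longest (10), over the 15114 tested genes at 72 h in LCM. Rescue 2 falls from 0.47 to -0.28 along the length axis, and Rescue 1 rises from -0.31 to 0.25.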

How the data were processed

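Poly(A) RNA of the keratinocytes was sequenced by the authors as strand-specific paired reads on an Illumina instrument. Per the labels and the study's methods, the authors aligned reads with HISAT2 2.1.0 to the mouse genome mm39 to which the GFP-PKP4 sequence was added, sorted them with SAMtools 1.10 and counted them per gene with featureCounts 2.0.0 on the Ensembl GRCm39 annotation. The strand setting of the counting is not given in the sources used here, so that reads of overlapping and antisense genes may not be told apart. The values deposited are raw whole-number counts per gene for 36 libraries, and no fold changes of the authors were used.

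Genes with low counts were removed with filterByExpr over the 12 groups, which left 15114 of 55358 genes. A model with a mean per group (24 residual degrees of freedom) was fitted with edgeR 4.0.16 in R 4.3.3 with TMM factors, and contrasts were tested with the quasi-likelihood F test and Benjamini-Hochberg adjustment at 0.05. The SE of a log2 fold change is its size divided by the square root of F. A difference of differences was tested in the same model. Depth of between 15418812 and 22467187 counts makes 1 library's smallest detectable level, set at 3 counts, 0.110 to 0.221 CPM in Rescue, and covers counting error only.

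Named genes were the construct and Pkp4, the 10 largest differences each way among called protein-coding genes whose mean reached 10 CPM and whose libraries did not overlap, up to 4 called and 2 abundant members per gene list, genes of proteins the study examined, and the 5 largest changes with time and with medium. Names were taken from these as the text needed, and sex-linked and marker genes were added. A gene that the rule names is not reported here. The comparison, its gene lists and these rules were chosen with earlier results of these data known. Alternatives were DESeq2 1.42.0, no TMM factors, other filters, only the groups compared, a replicate block, each library left out in turn, and offsets for gene length, the last chosen after seeing the data. The code was tested on simulated data. Exon 9 was read from GRCm39, and promoter sequences from RefSeq's GRCm38.p6 table, which was matched by gene symbol.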

Additional observations from a re-analysis of the deposited data

Results flagged for a closer look

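The difference between Rescue and WT changed with the medium, by the test of the difference of differences, for 67 of the genes named above. Values are log2 differences, HCM minus LCM at 72 h, so that a negative value means that Rescue stood lower relative to WT in HCM. Among growth factor and immediate-early genes these were Areg (-5.71), Epgn (-2.68), Tgfa (-1.08), Etv4 (-2.82) and Etv5 (-4.31), and Dusp5 (-2.05), Egr3 (-2.86), Fosl1 (-4.12) and Junb (-1.24). Cytokine genes with a changed difference were Csf3 (-6.28), Cxcl5 (-1.66), Il33 (-1.26) and Tslp (-2.48). Differentiation genes were Alox12b (-4.34), Klk5 (-4.33), Klk6 (-1.94) and Klk7 (-2.0), with Sprr1a (-2.54), Sprr2d (-3.66), Sprr2e (-3.78) and Spink7 (-4.04) and Slurp1 (-3.58), Defb14 (-7.06) and Pla2g4e (-2.2). Keratin genes were Krt4 (-3.31), Krt6b (-1.74), Krt15 (1.08) and Krt23 (-1.31). Stress genes were Atf4 (-1.29), Ddit3 (-3.01), Herpud1 (-1.18), Trib3 (-1.36) and Gadd45a (-1.02). Genes of metabolism and detoxification were Dhcr7 (-1.78), Fdft1 (-0.90), Ndrg1 (-0.85), Hmox1 (-1.33), Nqo1 (-1.66) and Gclc (1.67), and metal- or calcium-binding protein genes Mt2 (-6.12), Mt4 (-6.61) and S100a9 (-3.21). The S100a9 value was -1.74 and not called without Rescue replicate 2 of the 72 h LCM group (adjusted p = 0.35). Junction genes were Gjb2 (-2.95), Cldn4 (-1.53), Cldn23 (-3.57), Jup (-1.08) and Pkp3 (-0.60), and genes of signalling and matrix turnover Rnd1 (-2.02), Plaur (-2.74), Fst (-2.89) and Tead2 (-1.42), with Tcf23 (-3.72), Tmem179 (-2.56) and Prl2c3 (-2.41) outside these groups. Many of these genes were named for the size of their LCM difference, which is subtracted here. A value opposite in sign to that difference is therefore in part built in. Genes that were lower in Rescue in LCM mostly had a positive value. They were Glul (4.67), Txnip (2.25), Apcdd1 (1.44) and Klra8 (1.26), the attachment genes Cav1 (1.23), Itgb5 (0.83) and Tns3 (2.76), the replication genes Pcna (0.86) and Rrm1 (1.08), the p53-responsive genes Fas (1.11) and Sesn1 (3.13), and Dlc1 (1.2) and Id2 (1.53).

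The difference also changed from 24 h to 72 h in LCM for 28 named genes, by the same kind of test, with positive values where Rescue stood higher relative to WT at 72 h. These were Areg (1.47), Etv4 (1.99), Etv5 (2.55) and Csf3 (1.49) among growth factor and cytokine genes, and Dusp5 (1.27) and Fosl1 (1.81) among immediate-early genes. Differentiation genes were Alox12b (2.07), Klk6 (4.95), Klk7 (2.88), Sprr1a (1.97) and Pla2g4e (2.72). Gap and tight junction genes were Gjb2 (2.11) and Cldn23 (2.5). The urokinase receptor and follistatin genes were Plaur (1.93) and Fst (2.53). Metabolic genes were Dhcr7 (1.44), Ndrg1 (1.82) and Nqo1 (0.98), and Tmem179 (2.51) and Prl2c3 (3.28) completed the positive values. Negative values were found for Apcdd1 (-1.25), Glul (-2.0) and Igfbp2 (-2.57), for Itgb5 (-1.33) and Tns3 (-1.47), for Fas (-2.06) and Sesn1 (-1.68) and for Krt15 (-3.29). Many of these 28 genes were named for the size of their 72 h LCM difference, from which the 24 h difference is subtracted. A value with the same sign as the 72 h difference is therefore in part built in. Under the alternatives tried, none of these 67 and 28 differences took the opposite sign where it was tested, which for a minimum of 10 counts in every library was 60 and 25 of them. The differences were listed because they were called, which made a change of sign unlikely from the outset. Without TMM factors 13 and 5 of them lost their call, and in no other alternative did more than 5 of either kind. The changes with medium that lost their call without Rescue replicate 2 of the 72 h LCM group were those of S100a9 (-1.74, adjusted p = 0.35), Klk6 (-1.63, adjusted p = 0.12), Krt15 (1.06, adjusted p = 0.081), Krt23 (-1.30, adjusted p = 0.074) and Prl2c3 (-1.86, adjusted p = 0.072). The changes with time that did so were those of Nqo1 (0.76, adjusted p = 0.15) and Sesn1 (-1.41, adjusted p = 0.054). Leaving out single other libraries also ended calls of a change with medium for Klk6, Krt15, Krt23, Pkp3, S100a9 or Tcf23, and of a change with time for Areg, Csf3, Dusp5, Glul, Nqo1 or Sesn1. The S100a9 call was also lost with the replicate block (-3.11, adjusted p = 0.073). Groups of 3 libraries are too small for a test of single outlying libraries, and none was made.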

How the results depend on the processing

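Rescue against WT gave 4899 called genes, and between 3660 (only the 2 groups in the model) and 5281 (DESeq2) under the alternatives fixed beforehand, with 5340 under offsets for gene length, an alternative chosen after seeing the data. Leaving out 1 library at a time gave between 4055 and 4477 genes, between 2238 and 2505 higher and between 1792 and 2047 lower, and a Pkp4 log2 fold change between -2.31 and -2.10. Without a filter on low counts 3993 genes were called, without TMM factors 3999, and with at least 10 counts in every library 4061 of 11478 tested. The change from 24 h to 72 h was called for 591 genes, 905 under DESeq2 and 383 with only the groups compared in the model, and for between 408 and 544 when 1 library was left out. The difference between HCM and LCM was called for 2203 genes, and for between 1440 (without Rescue replicate 2 in LCM) and 3269 (without Rescue replicate 1 in LCM) when 1 library was left out. Rescue against PKP4-KO was called for 6281 genes, 3667 with only those groups in the model, and between 4979 and 7010 with 1 library left out. PKP4-KO against WT was called for 6809 genes, between 5420 and 6478 with 1 library left out, and its split of 3218 higher and 3591 lower became 1733 and 5014 without TMM factors, with the median over all genes at -0.35. The causes of these shifts were not tested.

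Whether replicate numbers pair the libraries could not be decided from their deviations, because these followed gene length. Their Spearman correlations with length were 0.56 and -0.52 in Rescue 1 and 2, and -0.36 and 0.41 in WT 1 and 2. The deviations of same-numbered Rescue and WT libraries correlated with -0.50, -0.34 and 0.14, and only the libraries numbered 3 correlated best with their own number. A fit with the replicate number as a block called 4809 genes.

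Of 104 named genes called between Rescue and WT, none changed direction under the alternatives in which it was tested, which with at least 10 counts in every library were 90 of the 104. Many of them were named because they were called with large differences. A change of direction was therefore unlikely from the outset, and its absence is in part built in. Without TMM factors 7 lost their call, without a filter 3, with only the groups compared 2, with at least 10 counts in every library 1, with length offsets 1, and with 1 library left out 2 to 4. None did under DESeq2 or the block. Limk1 lost it in 8 alternatives and Actb, Cdc42, Fasn and Rac1 in 4 each. Among 12 named genes that were not called, leaving out 1 library moved the log2 fold change of Dsp between -0.13 (without Rescue replicate 1) and 0.41. It moved that of Jup between -0.026 and 0.19, that of Mt2 between -0.082 and 2.13, and that of S100a6 between -0.98 and 1.58, each lowest value without Rescue replicate 2. Genes under 3 counts in a library, such as Hoxa3 in WT, have no measurable level there, and their fold changes depend on the prior count of the model.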

Other observations

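For most chromosomes the median difference between Rescue and WT had the same sign in settings with WT libraries of their own. Chromosomes 3, 10 and 11, with medians at or near 0 at 72 h in LCM, were exceptions. Values are given for chromosomes X, 5 and 14, picked after their values were seen. The X chromosome's median log2 fold change was -0.28 at 72 h in LCM, -0.33 at 24 h in LCM and -0.16 at 72 h in HCM. For chromosome 5 these values were -0.26, -0.29 and -0.23, and for chromosome 14 they were 0.25, 0.15 and 0.37. PKP4-KO against WT at 72 h in LCM, which shares the WT libraries, had medians of -0.43, -0.38 and 0.36 on the same chromosomes. Genes on these chromosomes were not tested as sets.

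Krt7 and Stc2 were called higher in Rescue in each of 3 settings compared, and other genes were not called in some of them. Krt7 had log2 fold changes of 4.76, 4.83 and 5.65 at 24 h in LCM, 72 h in LCM and 72 h in HCM, and Stc2 4.42, 5.49 and 5.41. Cldn23 had 0.45 at 24 h and -0.61 in HCM, neither called (adjusted p = 0.4 and 0.087), beside 2.96 at 72 h in LCM. Cdh1 had 0.06 and -0.01 in those settings (adjusted p = 0.85 and 0.98) beside 0.68, and its change with time or medium was not called (adjusted p = 0.22 and 0.061). Klk6 reached 189 ± 27.2 CPM in Rescue and 35.4 ± 9.35 CPM in WT in HCM (SD, n = 3), beside 12.3 ± 4.15 and 0.586 ± 0.394 CPM at 72 h in LCM.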
